A study of Mus musculus with 9 samples.

Results

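The 38 genes described here encode the protein machinery of macroautophagy, and their mRNA was followed in mouse bone marrow-derived macrophages (BMDMs). The genes were taken by symbol from the deposited expression table of 28379 genes, in which all 38 were found, once each, on 18 chromosomes. The rule takes them by name and uses no measured value. RNA sequencing (RNA-seq) was performed on 3 groups of 3 libraries, and every culture received macrophage colony-stimulating factor (M-CSF, 20 ng/ml), the growth factor that maintains these cells. The PBS group received vehicle only. The RANKL group received RANKL (100 ng/ml), the ligand of the receptor RANK and the cytokine that drives macrophages to become osteoclasts, the cells that resorb bone. The RANKL + Vit D + K group received the same RANKL together with vitamin D (calcitriol, 1000 nM) and vitamin K (menaquinone-4, 20 μM by the sample labels, while the methods of the study give a higher dose). The treatment time was 48 h. The libraries do not separate vitamin D from vitamin K, since no group received only 1 of them with RANKL, and the number of mice or cultures behind a library is not given in the sources used here, so that p-values measure the spread between these libraries, which may be technical.

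Macroautophagy encloses cytoplasm, damaged organelles or protein aggregates in a double membrane, the autophagosome, and delivers them to the lysosome. The ULK1 kinase complex starts the process, the class III PI3-kinase complex marks the membrane with phosphatidylinositol 3-phosphate (PI3P), and lipid transfer proteins and ATG9A vesicles supply membrane. A pair of ubiquitin-like conjugation systems then joins ATG12 to ATG5 and attaches ATG8 proteins, the LC3 and GABARAP families, to lipid on the growing membrane, where cargo receptors such as p62 bind both an ATG8 protein and the cargo. In osteoclasts, proteins of the conjugation systems are also known to take part in the fusion of lysosomes with the ruffled border, through which bone is resorbed. mRNA levels do not measure autophagic flux, and p62 is itself degraded by autophagy.

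The depth was 65915112 to 68229647 counts per library. Macrophage markers were present in every group, with all 8 of the list at 1 FPKM or more, and FPKM is the number of sequenced fragments per length of transcript and depth of the library. Their summed level was 26412 to 30648 FPKM in the PBS group, 16672 to 24298 in the RANKL group and 4533 to 11576 with vitamins. Acp5, the osteoclast acid phosphatase, averaged 4.20 ± 0.684, 218 ± 54.9 and 3.48 ± 3.80 FPKM in the same order (mean ± SD, n = 3), and Ctsk, the collagen-degrading protease of osteoclasts, averaged 9.51 ± 2.27, 297 ± 113 and 38.7 ± 16.5 FPKM. Another marker, the proton pump subunit Atp6v0d2, averaged 3.64 ± 0.724, 32.9 ± 11.5 and 24.4 ± 13.3 FPKM. All 9 osteoclast markers summed to between 22.9 and 30.4 FPKM with PBS, between 487 and 1018 FPKM with RANKL and between 58.2 and 93.1 FPKM with vitamins, and Calcr was at 0 with PBS and with vitamins. Neutrophil markers summed to between 11.1 and 128 FPKM, between 11.3 and 148 FPKM, and between 0.551 and 1.72 FPKM, with 5 of the 8 (Camp, Elane, Ltf, Ly6g and Mpo) at 0 in the vitamin group. The T cell list, of which 2 of 5 genes were analysed here, summed to at most 3.92 FPKM, and the B cell, stromal, dendritic and erythroid lists summed to under 1 FPKM in every library. Whether these marker levels reflect cell makeup, and any part of cell makeup in the values below, was not tested.

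One library stood furthest apart. The library labelled RANKL + Vit D + K replicate 2 differed from replicates 1 and 3 by a chi-square per degree of freedom of 453 and 293 over all genes, against 51.3 between replicates 1 and 3. Replicate 2 also differed most within the other groups. The same values were 138 and 161, against 25.1, in the RANKL group and 69.8 and 76.6, against 29.6, in the PBS group. Over the 17002 genes tested, the median distance of vitamin replicate 2 from the RANKL mean was 0.44 on the log2 scale, against 0.81 and 0.70 for vitamin replicates 1 and 3. Over the 38 autophagy genes the same distance was 0.28, against 0.61 and 0.43, and in 26 of the 38 genes replicate 2 lay closest to the RANKL mean of the 3 vitamin-treated libraries. Counts of calls among the 38 genes are therefore also given without it.

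**Figure D1:**
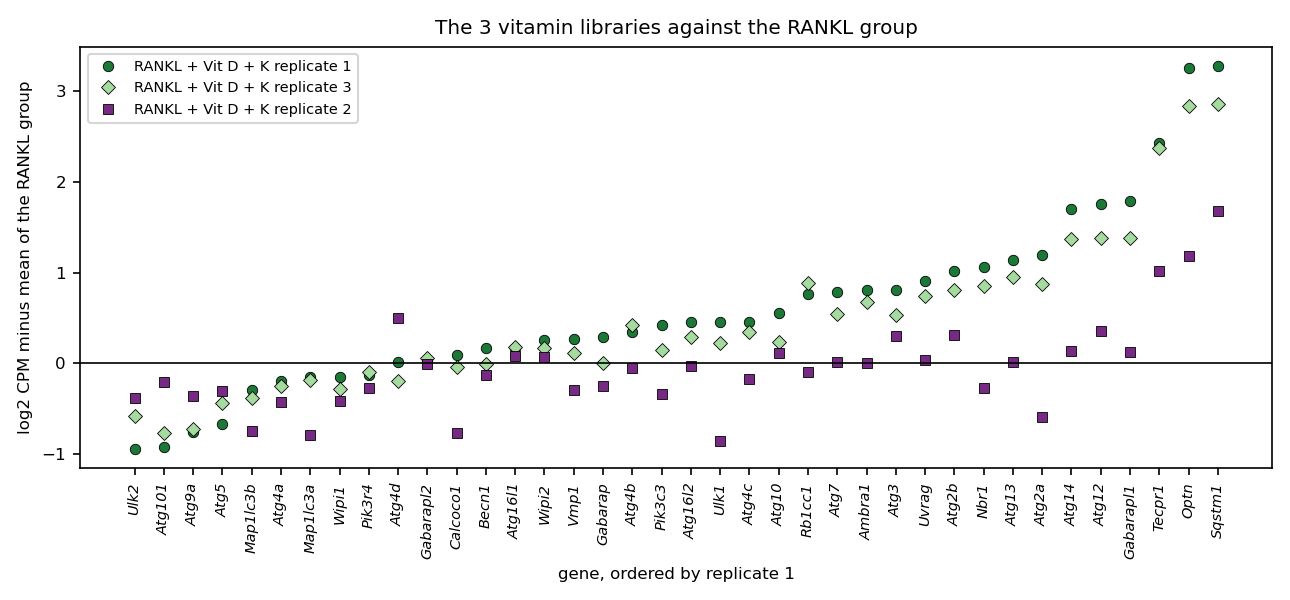
Log2 CPM (counts scaled to the TMM-adjusted library total) of each vitamin-treated library minus the mean of the RANKL group, for each of the 38 autophagy genes on the horizontal axis, with 1 point per library. Replicate 2 lies nearest to 0, the RANKL mean, in 26 of 38 genes, replicate 1 in 5 and replicate 3 in 7.

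In untreated macrophages the 38 genes spanned a wide range of levels per length. Sqstm1, which encodes the cargo receptor p62, was the highest at 222 ± 2.04 FPKM (n = 3) and ranked 130 of all genes in the table. Gabarap, an ATG8 protein, followed at 208 FPKM (rank 137), then Gabarapl1 at 73.3 FPKM and Vmp1 at 45.1 FPKM. The lowest was Optn, which encodes the receptor optineurin, at 2.82 FPKM (rank 8371). All 38 passed the filter on low counts in the test below, and the smallest count of any of them in any library was 362 (Atg10).

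**Figure D2:**
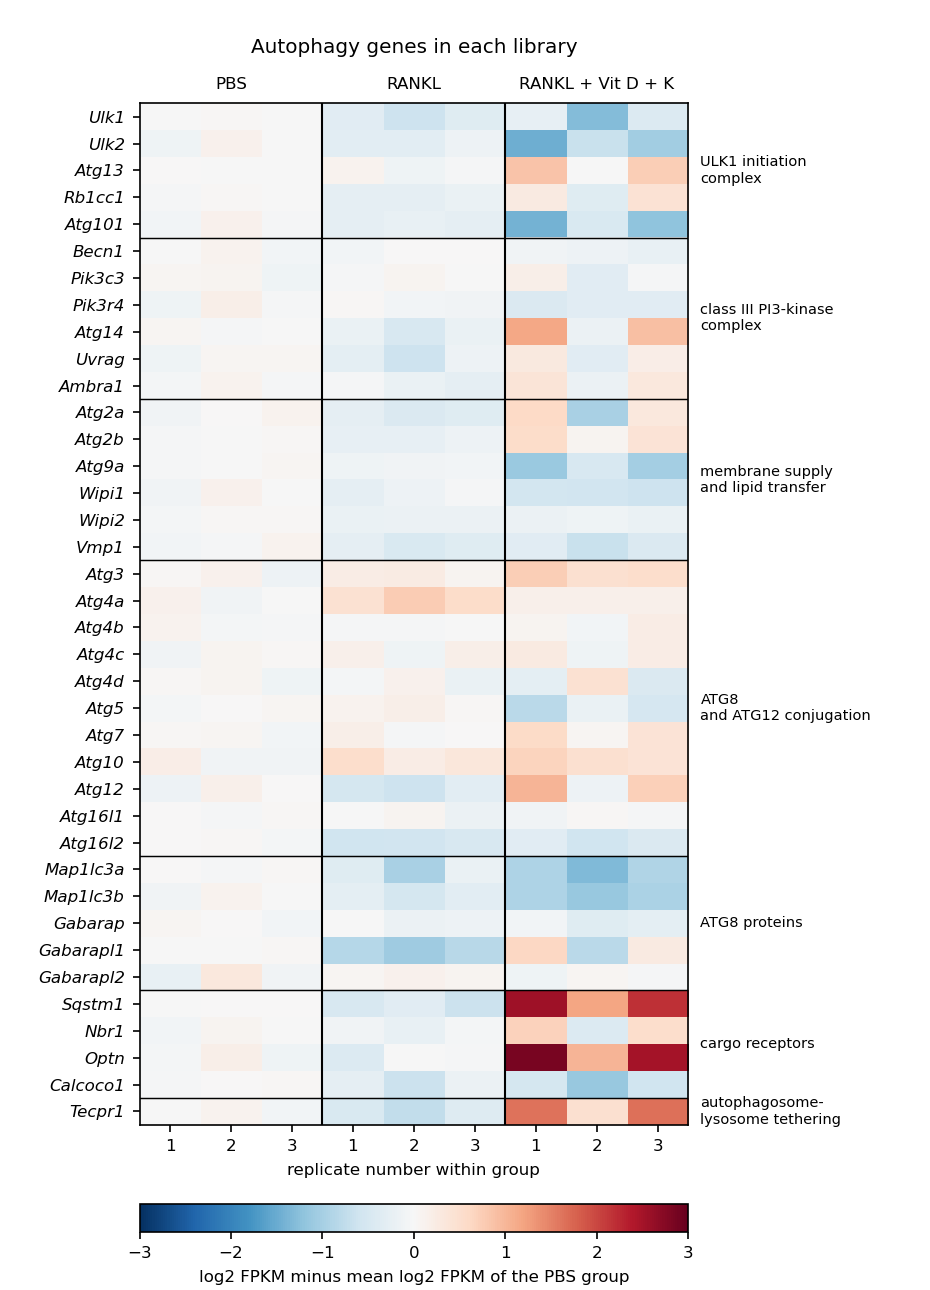
Colour gives the log2 FPKM of each autophagy gene (rows, grouped by role) in each of the 9 libraries (columns) minus the mean log2 FPKM of the PBS group. Sqstm1, Optn and Tecpr1 are above the PBS level in all 3 vitamin-treated libraries, and of these libraries replicate 2 lies closest to PBS in the 3 genes.

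With RANKL alone, a single autophagy gene passed the test. By edgeR's quasi-likelihood test on the counts, with Benjamini-Hochberg adjustment over all 17002 genes tested and a threshold of 0.05, 0 of 38 genes passed as higher with RANKL than with PBS and 1 as lower (2.63% in either direction). Of all genes tested, 3.61% passed, 2.35% higher and 1.26% lower. The median log2 fold change of the 38 genes was -0.28, against -0.04 over all genes tested. It was negative in 35 genes and positive in 3 (Atg4a, Atg10 and Atg3), and 8 of the 38 had an unadjusted p under 0.05. Over all 17002 genes tested it was negative in 9225 and positive in 7772, and 3163 had an unadjusted p under 0.05. In FPKM, 19 genes lay lower in all 3 RANKL libraries than in any PBS library and 2 lay higher, where 12.9% and 22.4% of all genes tested did so. In bulk RNA, fewer cells of a type and less RNA per cell cannot be told apart.

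The gene that passed was Atg16l2, a relative of ATG16L1, the partner of the ATG12-ATG5 conjugate. Its level was 2.92, 2.96 and 2.80 FPKM in the PBS libraries, 1.92, 1.94 and 2.09 in the RANKL libraries and 2.29, 1.92 and 2.13 in the vitamin-treated libraries. All RANKL libraries lay below all PBS libraries. The log2 fold change was -0.67 with a standard error (SE) of 0.148 (edgeR adjusted p = 0.0446), and the call was lost in 10 of 16 alternative analyses, among them leaving out any single PBS or RANKL library, with adjusted p between 0.0834 and 0.177. Atg16l2 overlaps Fchsd2 on the opposite strand, and use of strand in the counting is not stated.

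The RANKL comparison depended on the library that stood apart, although it belongs to neither group, because the 3 groups share 1 estimate of the spread. Without replicate 2 of the vitamin group, 1 autophagy gene was higher and 12 were lower (972 higher and 931 lower over all genes, 10.7% of those tested). The 12 genes gained were Ulk1, Rb1cc1, Atg101, Atg2a, Wipi2, Vmp1, Atg12, Map1lc3b, Gabarapl1, Sqstm1 and Tecpr1, all lower, and Atg4a, one of the proteases that process ATG8 proteins, which was higher. Fitting only the PBS and RANKL libraries gave 1 higher and 10 lower, with 10.6% of all genes called. The log2 values themselves stayed where they were, at -1.04 for Gabarapl1 (edgeR adjusted p = 0.133 with the library and 0.00306 without it), -0.61 for Sqstm1 (adjusted p = 0.349 and 0.0158) and 0.46 for Atg4a (adjusted p = 0.0896 and 0.034).

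Addition of vitamins D and K to RANKL moved autophagy genes in both directions, at a share near that of all genes tested. Compared with RANKL alone, 9 of 38 genes rose and 5 fell, which is 36.8% of them, and 33.7% of all genes tested passed in the same comparison (16.4% higher, 17.2% lower). The median log2 fold change was 0.19, against -0.04 over all genes tested, and the median size of the change regardless of sign was 0.47 against 0.60. In FPKM, 8 genes lay higher in all vitamin-treated libraries than in any RANKL library and 9 lay lower, against 17.0% and 29.2% of all genes tested. Without vitamin replicate 2 the counts were 19 higher and 5 lower, with all 14 calls kept, and 46.4% of all genes tested passed (21.2% higher, 25.2% lower). They fell to 5 higher and 2 lower without RANKL replicate 3, to 2 lower without RANKL replicate 1, to 3 lower without vitamin replicate 1 and to 1 lower without vitamin replicate 3, and in these 4 fits 18.1% to 21.1% of all genes tested passed. With limma on log2(FPKM + 0.1) the median log2 fold change was 0.04 over the 38 genes and -0.16 over all genes. The calls over all genes were then 2184 higher and 3953 lower, against 2796 and 2929 in edgeR, and those among the autophagy genes were 8 higher and 7 lower. In edgeR without vitamin replicate 2 the medians were 0.35 and -0.11.

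**Figure D3:**
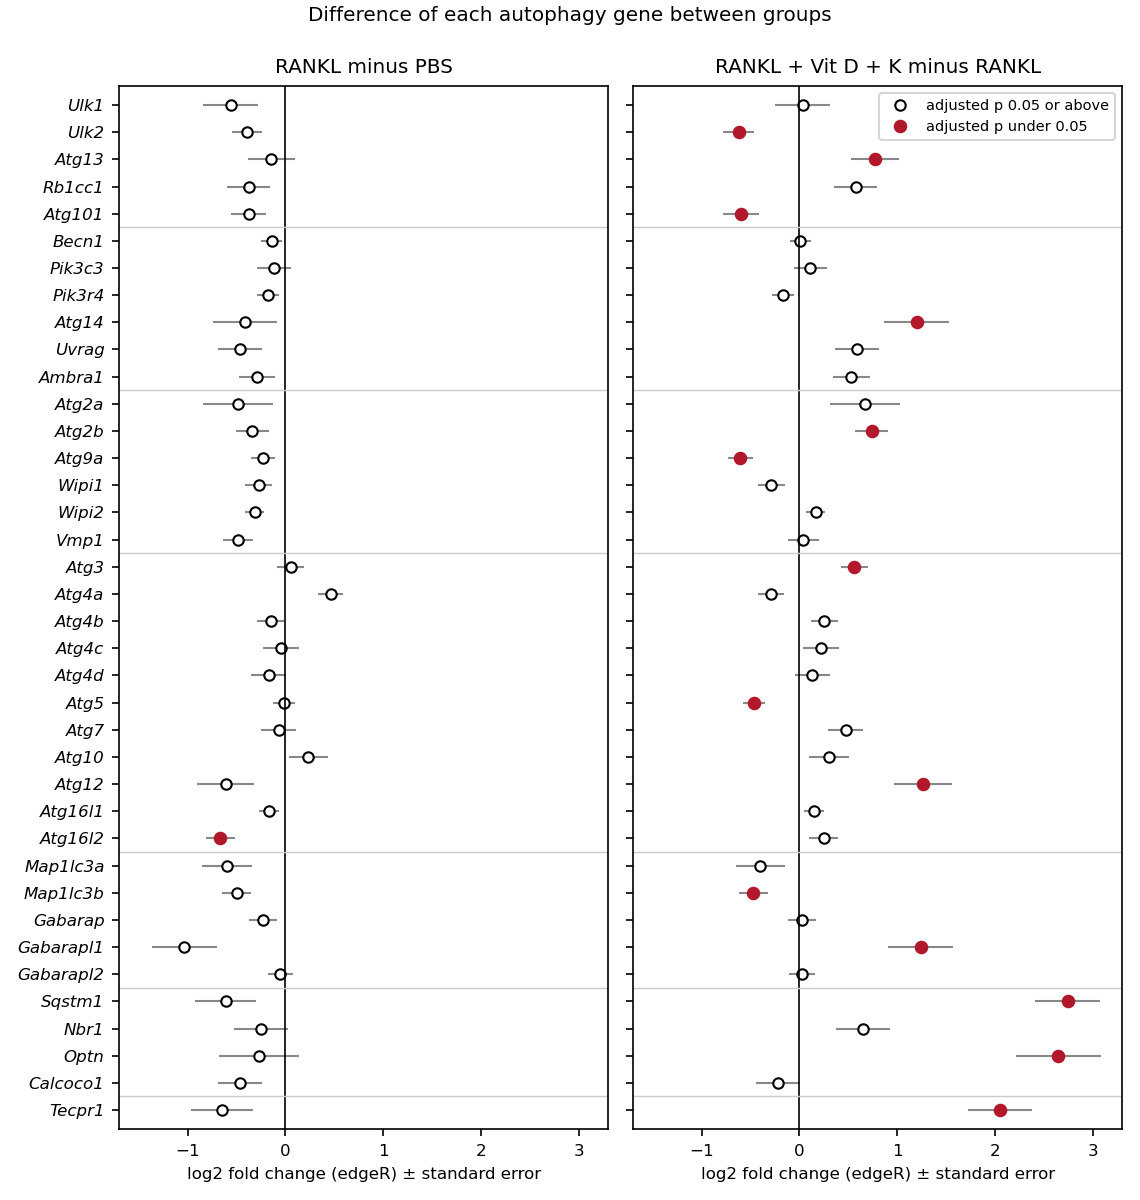
Log2 fold change from edgeR for the 38 autophagy genes in RANKL against PBS and in RANKL + Vit D + K against RANKL, with bars of 1 standard error on each side and filled points for genes with an adjusted p under 0.05. Atg16l2 is the filled point of the first comparison, and the second holds 9 filled points above 0 and 5 below.

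The cargo receptors held the largest rises. Sqstm1 (chromosome 11, 50199366 to 50210827, minus strand; coordinates of the deposited table, GRCm38) was at 220.0, 222 and 224 FPKM in the PBS libraries, 160.1, 174 and 142 in the RANKL libraries and 1288, 502 and 1008 in the vitamin-treated libraries. Every vitamin-treated library lay above every other library, and replicate 2 was the lowest of the 3. The log2 fold change over RANKL was 2.74 (SE 0.336, edgeR adjusted p = 0.000956), a 6.70-fold rise, and that over PBS was 2.13 (SE 0.328, adjusted p = 0.00139). Both calls held under all 16 alternatives. Sqstm1 rose to rank 23 of all genes in the table, and overlaps Mrnip on the opposite strand.

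Optn, whose product is a receptor for ubiquitinated mitochondria and bacteria, was at 2.71, 3.18 and 2.55 FPKM with PBS, at 2.11, 2.78 and 2.75 with RANKL and at 20.3, 5.69 and 15.9 with vitamins. Its groups with and without vitamins did not overlap. Against RANKL the log2 rise was 2.65 (SE 0.434, edgeR adjusted p = 0.0029), and it held under all alternatives. Nbr1, a receptor for ubiquitinated cargo related to p62, was at 28.2, 31.4 and 29.7 FPKM, at 27.6, 25.4 and 28.6, and at 47.9, 22.4 and 43.0 in the same order. Replicates 1 and 3 of the vitamin group lay above all other libraries and replicate 2 below them. Nbr1 differed from RANKL by 0.65 on the log2 scale (SE 0.280, edgeR adjusted p = 0.103), and without replicate 2 it was 0.96 (adjusted p = 0.000162). Calcoco1, which encodes a receptor of endoplasmic reticulum and Golgi cargo, was at 12.8, 13.3 and 13.5 FPKM in the PBS libraries, at 11.04, 8.50 and 11.7 in the RANKL libraries and at 9.22, 6.00 and 8.79 with vitamins. Its RANKL and vitamin-treated libraries overlapped, with a log2 difference of -0.22 (SE 0.224, edgeR adjusted p = 0.482) that was 0.00 without vitamin replicate 2. Calcoco1 was lower than in the PBS group by -0.68 (SE 0.225, adjusted p = 0.0381), a call lost when any PBS library, RANKL replicate 1 or vitamin replicate 3 was left out (adjusted p 0.0565 to 0.107).

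Tecpr1, which tethers autophagosomes to lysosomes, was the third gene with a change over 2 on the log2 scale. Its level was 8.46, 9.24 and 8.05 FPKM in the PBS libraries, 6.205, 5.11 and 6.51 in the RANKL libraries and 26.7, 11.9 and 26.9 in the vitamin-treated libraries, with no overlap between vitamin-treated and other libraries. Tecpr1 rose by 2.05 on the log2 scale over RANKL (SE 0.324, edgeR adjusted p = 0.00252) and by 1.40 over PBS (SE 0.317, adjusted p = 0.00786), and both held under all alternatives.

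With vitamins, Sqstm1 made up the largest part of the autophagy transcripts per length. The summed level of the 38 genes was 916 to 944 FPKM in the PBS libraries, 756 to 796 in the RANKL libraries and 2065, 1044 and 1705 in the vitamin-treated libraries. Sqstm1 made up 23.5% to 24.4%, 18.8% to 22.9%, and 62.4%, 48.1% and 59.1% of this sum. The other 37 genes summed to 694 to 722 FPKM, 586 to 636 FPKM, and 776, 542 and 696 FPKM, so that the vitamin-treated libraries spread below and above both other groups.

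The promoters of the 3 genes that rose most are shown because they moved together. Each stretch holds the bases before the RefSeq transcription start site (GRCm38.p6), written 5′ to 3′ along the gene, and no capitals occur because none of the 3 motifs searched was found.
Sqstm1, chr11:50210828-50211070, minus strand: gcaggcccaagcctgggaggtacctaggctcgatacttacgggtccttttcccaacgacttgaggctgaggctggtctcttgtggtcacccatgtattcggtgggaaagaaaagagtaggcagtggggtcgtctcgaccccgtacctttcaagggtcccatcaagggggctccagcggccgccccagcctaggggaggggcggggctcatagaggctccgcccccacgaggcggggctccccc
Optn, chr2:5064118-5064367, minus strand: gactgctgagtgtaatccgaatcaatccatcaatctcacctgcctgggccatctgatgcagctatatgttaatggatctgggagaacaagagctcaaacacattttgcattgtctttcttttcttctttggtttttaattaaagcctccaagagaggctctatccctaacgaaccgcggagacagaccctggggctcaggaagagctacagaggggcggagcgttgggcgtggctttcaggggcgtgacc
Tecpr1, chr5:144223616-144223865, minus strand: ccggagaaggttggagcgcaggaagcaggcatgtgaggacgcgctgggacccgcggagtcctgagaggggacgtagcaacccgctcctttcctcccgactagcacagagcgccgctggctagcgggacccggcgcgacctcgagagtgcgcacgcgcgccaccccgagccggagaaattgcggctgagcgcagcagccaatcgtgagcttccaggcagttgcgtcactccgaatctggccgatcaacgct
The motifs were the E-box CACGTG, bound by TFEB and its relatives, TGACNNNGC, the core of the antioxidant response element bound by NRF2, and TGATGNAAT, bound by CHOP with ATF4, each searched on both strands. RefSeq promoter windows, which also hold bases after the start site, were matched for 32 of the 38 genes. CACGTG was found in 4 of them (12.5%, against 8.09% of all genes with a window), namely Atg3, Atg5, Atg7 and Atg14. TGACNNNGC was found in 4 (12.5%, against 3781 of 27025 genes with a window), namely Ulk2, Atg13, Vmp1 and Map1lc3b, and TGATGNAAT in 0 (against 1.08%). The match of Map1lc3b lay after the start site and that of Atg14 across it. The matched windows of Atg7 and Atg14 lay inside the gene as placed in the deposited table. A match describes letters in a window and not a bound site, and an absent match says only that these letters are not in this window.

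In the ULK1 initiation complex, 1 of 5 genes rose with vitamins and 2 fell (60%, against 33.7% of all genes tested). Atg13, the subunit that links ULK1 to its scaffold FIP200, was at 14.8, 14.6 and 14.5 FPKM in the PBS libraries, at 15.6, 13.3 and 14.3 in the RANKL libraries and at 26.6, 14.4 and 24.5 with vitamins. Replicates 1 and 3 lay above the RANKL libraries and replicate 2 among them. Its rise was 0.77 on the log2 scale (SE 0.246, edgeR adjusted p = 0.0385), and the call was lost in 12 of 16 alternatives, among them leaving out any library but vitamin replicate 2, with adjusted p up to 0.123. Ulk2, a kinase related to ULK1, was at 11.7, 13.96 and 12.7 FPKM, at 10.2, 10.2 and 11.4, and at 4.63, 8.08 and 6.197 in the 3 groups. The vitamin-treated libraries were all below the others, with a log2 fold change of -0.62 over RANKL (SE 0.154, edgeR adjusted p = 0.0145), lost without RANKL replicate 3 (adjusted p = 0.0601) and without vitamin replicate 3 (adjusted p = 0.0501).

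Atg101, which binds ATG13, fell in the same way. It was at 16.5, 19.3 and 17.2 FPKM with PBS, at 14.7, 15.04 and 14.7 with RANKL and at 6.58, 12.7 and 7.63 with vitamins. No vitamin-treated library reached the lowest RANKL library. Atg101 differed from RANKL by -0.60 on the log2 scale (SE 0.182, edgeR adjusted p = 0.0323). This call was lost when any library other than vitamin replicate 2 was left out (adjusted p 0.0537 to 0.129), without the filter on low counts (0.0528) and with only the 2 groups compared (0.0821), in 10 of the 16 alternatives. The 2 other genes of the complex did not pass against RANKL. Ulk1, the kinase that starts autophagosome formation, differed by 0.03 (SE 0.279). Its vitamin-treated libraries lay 0.46, -0.85 and 0.23 from the RANKL mean on the log2 scale, with replicate 2 on the other side. Rb1cc1, which encodes FIP200, was 0.57 higher (SE 0.217, edgeR adjusted p = 0.069, and 8.65e-05 without vitamin replicate 2).

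Among the 6 genes of the class III PI3-kinase complex, 1 rose and 0 fell with vitamins (16.7%, against 33.7% of all genes tested, 16.4% higher and 17.2% lower). Atg14, the subunit that directs the kinase to autophagy, was at 6.18, 5.81 and 5.89 FPKM in the PBS libraries, at 5.16, 4.27 and 5.19 in the RANKL libraries and at 13.3, 5.29 and 11.1 in the vitamin-treated libraries. Replicate 2 exceeded the highest RANKL library only narrowly. Atg14 rose by 1.20 on the log2 scale (SE 0.329, edgeR adjusted p = 0.0218), lost when any RANKL library or vitamin replicate 1 or 3 was left out (adjusted p 0.0565 to 0.0724) and with only the 2 groups compared (adjusted p = 0.0569). The catalytic subunit Pik3c3 (VPS34) was at 11.5 to 12.4 FPKM in the RANKL group and at 9.32 to 13.3 with vitamins, and Becn1 (Beclin 1) was at 12.4 to 13.3 and at 11.3 to 12.3 FPKM. Becn1 was lower in FPKM in every vitamin-treated library, while its edgeR log2 fold change was 0.01 (SE 0.106), so that its direction rested on the scaling. Uvrag and Ambra1 were 0.59 and 0.53 higher on the log2 scale (edgeR adjusted p = 0.0729 and 0.0563), and Pik3r4 (VPS15) was 0.17 lower than with RANKL (SE 0.115, adjusted p = 0.292). Without vitamin replicate 2, Pik3c3, Uvrag and Ambra1 passed as higher (adjusted p = 0.0445, 0.00309 and 0.000413).

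Of the 6 genes for membrane supply, 1 rose and 1 fell (33.3%, near the 33.7% of all genes tested). Atg2b, a lipid transfer protein, was at 4.30, 4.33 and 4.52 FPKM with PBS, at 3.70, 3.67 and 3.96 with RANKL and at 6.44, 4.66 and 5.81 with vitamins. The vitamin-treated libraries were the highest 3 of the 9. Atg2b rose over RANKL by 0.74 on the log2 scale (SE 0.169, edgeR adjusted p = 0.0106). Atg9a, the membrane protein of the vesicles that seed the phagophore, was at 13.1, 13.4 and 13.9 FPKM, at 12.3, 12.4 and 12.8, and at 6.24, 9.69 and 6.63, with the vitamin-treated libraries the lowest 3 of the 9. Its log2 fold change over RANKL was -0.61 (SE 0.126, edgeR adjusted p = 0.00746). Both calls held under all 16 alternatives. Atg2a, the relative of Atg2b, was at 11.5, 10.3 and 10.9 FPKM with RANKL and at 21.0, 7.15 and 17.5 with vitamins, so that replicate 2 lay below and the other replicates above the RANKL libraries (edgeR adjusted p = 0.178, and 0.000222 without replicate 2). Wipi1, Wipi2 and Vmp1 differed from RANKL by -0.29, 0.16 and 0.04 on the log2 scale and did not pass.

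In the conjugation systems, 2 of 11 genes rose and 1 fell (27.3%, below the 33.7% of all genes tested). Atg12, the ubiquitin-like protein joined to ATG5, was at 7.81, 9.59 and 8.73 FPKM in the PBS libraries, at 5.98, 5.64 and 6.94 in the RANKL libraries and at 17.6, 7.84 and 14.1 in the vitamin-treated libraries. It was above RANKL in every vitamin-treated library, with a log2 fold change of 1.27 (SE 0.298, edgeR adjusted p = 0.0119) that held under all 16 alternatives. Atg3, the E2-like enzyme that attaches ATG8 proteins to lipid, was at 17.8, 19.0 and 15.5 FPKM, at 20.2, 20.6 and 18.4, and at 29.0, 24.1 and 25.1. Its vitamin-treated libraries were the highest 3 of the 9. On the log2 scale Atg3 rose by 0.56 over RANKL (SE 0.138, edgeR adjusted p = 0.0146), lost without RANKL replicate 3 (adjusted p = 0.0571).

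Atg5, the acceptor of ATG12, moved the other way. Its level was 21.3, 22.3 and 23.2 FPKM with PBS, 23.95, 25.3 and 22.9 with RANKL and 12.7, 19.3 and 15.6 with vitamins, below both other groups in every library. The log2 fold change over RANKL was -0.46 (SE 0.115, edgeR adjusted p = 0.015), lost without RANKL replicate 1 or vitamin replicate 1 or 3 (adjusted p at most 0.0589). The genes whose products are joined to each other, Atg12 and Atg5, thus differed from RANKL in opposite directions. Both Atg3 and Atg5 hold the E-box CACGTG before their start site, marked in capitals below, Atg3 at 2 places. Of the other 2 genes with this motif, Atg14 rose by 1.20 and Atg7 did not pass (0.48). Any part of the motif in these changes was not tested.
Atg3, chr16:45158579-45158784, plus strand: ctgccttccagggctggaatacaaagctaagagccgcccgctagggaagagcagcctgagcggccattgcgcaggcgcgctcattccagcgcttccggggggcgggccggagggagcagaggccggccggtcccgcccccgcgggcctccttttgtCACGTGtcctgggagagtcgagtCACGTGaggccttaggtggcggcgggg
Atg5, chr10:44268089-44268338, plus strand: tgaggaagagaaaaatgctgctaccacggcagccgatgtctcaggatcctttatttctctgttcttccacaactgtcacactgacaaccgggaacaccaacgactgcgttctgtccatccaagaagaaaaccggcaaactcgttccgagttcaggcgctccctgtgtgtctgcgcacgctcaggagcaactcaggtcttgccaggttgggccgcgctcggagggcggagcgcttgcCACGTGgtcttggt
The other 8 conjugation genes did not pass against RANKL. The E1-like enzyme Atg7 was 0.48 higher (SE 0.178, edgeR adjusted p = 0.0671, and 0.00118 without vitamin replicate 2). The ATG12 E2-like enzyme Atg10, Atg16l1 and Atg16l2 differed by 0.30, 0.14 and 0.25, and the 4 proteases Atg4a, Atg4b, Atg4c and Atg4d differed by -0.29, 0.25, 0.22 and 0.13. For Atg4d the vitamin-treated libraries lay 0.01, 0.50 and -0.19 from the RANKL mean on the log2 scale, with replicate 2 the highest. Atg4a was at 7.98, 6.71 and 7.18 FPKM with PBS, at 9.97, 12.3 and 10.7 with RANKL and at 8.06, 8.08 and 8.07 with vitamins, so that RANKL held the highest 3 libraries. Without vitamin replicate 2, Atg4b, Atg4c and Atg16l2 also passed as higher (adjusted p = 0.0121, 0.0461 and 0.0296).

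**Figure D4:**
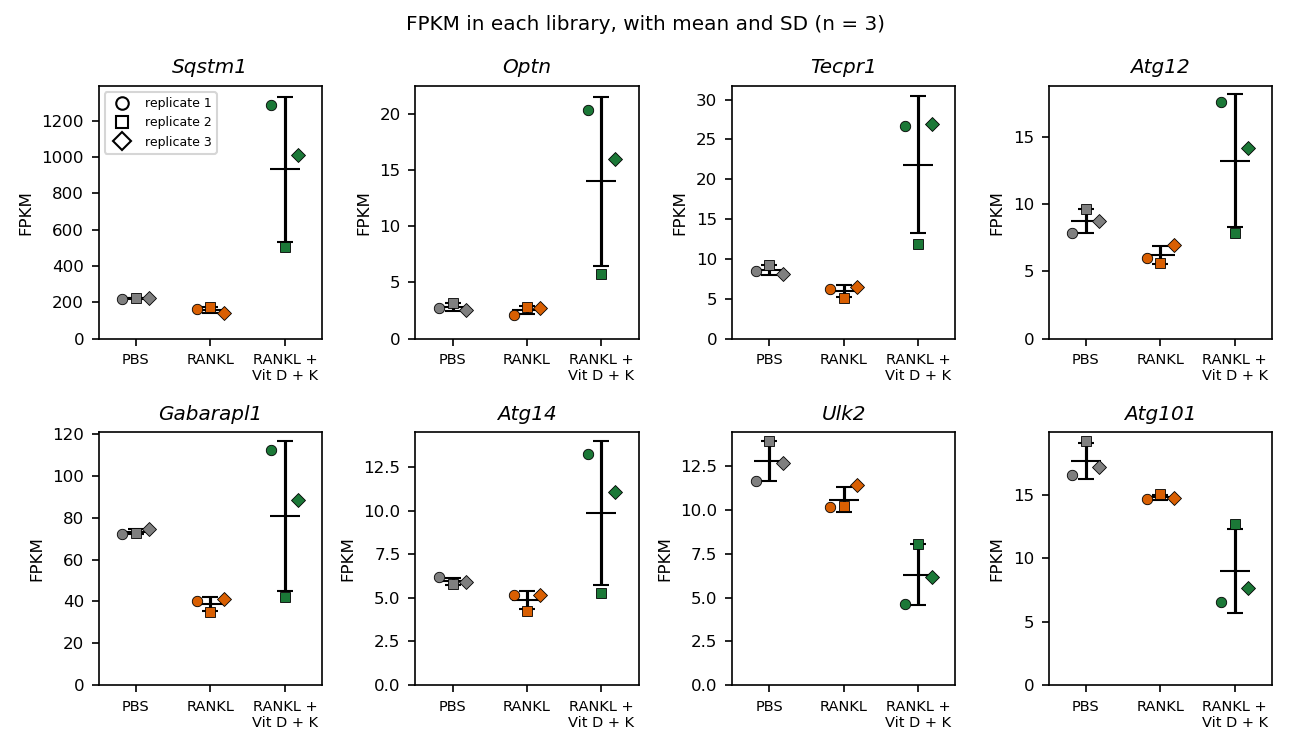
FPKM of 8 autophagy genes in each library by group, with points for libraries, a horizontal line for the group mean and bars of 1 SD on each side (n = 3), on axes that start at 0. Sqstm1 lies between 142 and 174 FPKM with RANKL and between 502 and 1288 with vitamins, and in these 8 genes vitamin replicate 2 is the vitamin-treated library closest to the RANKL group.

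Of the 5 ATG8 proteins, which decorate the autophagosome membrane and bind cargo receptors, 1 rose and 1 fell with vitamins (40%, against 33.7% of all genes tested). Gabarapl1 was at 72.3, 72.9 and 74.8 FPKM in the PBS libraries, at 40.3, 35.1 and 41.4 in the RANKL libraries and at 112, 42.0 and 88.5 in the vitamin-treated libraries. RANKL libraries were all lower than PBS, and vitamin replicate 2 was barely above the highest RANKL library while replicates 1 and 3 exceeded PBS. The log2 fold change over RANKL was 1.24 (SE 0.335, edgeR adjusted p = 0.0207), lost when any RANKL library or vitamin replicate 1 or 3 was left out (adjusted p 0.0546 to 0.0648) and with only the 2 groups compared (adjusted p = 0.0552). Gabarapl1 overlaps Gm44243 on its own strand and 1700101I11Rik on the other.

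Map1lc3b, which encodes LC3B, fell. It was at 24.9, 28.7 and 26.3 FPKM with PBS, at 21.7, 18.5 and 21.2 with RANKL and at 14.01, 12.1 and 13.8 with vitamins, in 3 ranges that did not overlap. The log2 fold change was -0.47 over RANKL (SE 0.145, edgeR adjusted p = 0.0342), lost without RANKL replicate 1, RANKL replicate 3 or vitamin replicate 3 (adjusted p = 0.12, 0.111 and 0.061) and with only the 2 groups compared (adjusted p = 0.0675). Against PBS it was -0.97 (SE 0.146, edgeR adjusted p = 0.00128), a call that held under every alternative. Map1lc3a (LC3A) was at 12.9, 12.4 and 13.0 FPKM, at 9.91, 6.46 and 11.1, and at 6.75, 5.13 and 6.87, lower in every vitamin-treated library than with PBS (log2 -0.99, SE 0.256, edgeR adjusted p = 0.0138) and overlapping with RANKL (log2 -0.40, SE 0.254, adjusted p = 0.255).

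Gabarap, the most abundant ATG8 mRNA, was at 216, 209 and 197 FPKM with PBS, at 207, 185 and 185 with RANKL and at 197, 161 and 169.7 with vitamins. Its vitamin-treated and RANKL libraries overlapped, and the log2 difference of 0.03 (SE 0.143) became -0.13 on the FPKM scale. Gabarapl2 was at 16.5, 23.8 and 17.9 FPKM, at 20.1, 20.9 and 20.2, and at 17.6, 20.1 and 18.7, without a call in any comparison. Within the summed ATG8 level, which was 340 ± 9.16, 281 ± 16.6 and 295 ± 53.9 FPKM (n = 3), the genes took different shares. Gabarapl1 made up 21.6% ± 0.943 with PBS, 13.8% ± 0.858 with RANKL and 26.5% ± 7.91 with vitamins (SD, n = 3), at 32.3%, 17.5% and 29.8% in the 3 vitamin-treated libraries. Map1lc3b made up 7.83% ± 0.515, 7.27% ± 0.306 and 4.56% ± 0.501. These shares are given as a description and were not tested.

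**Figure D5:**
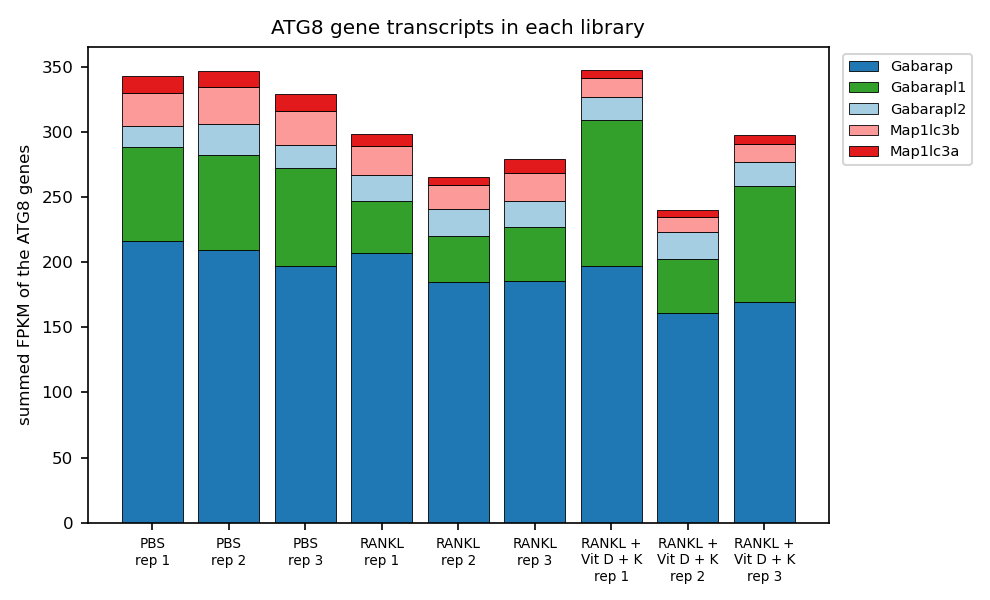
Summed FPKM of the 5 ATG8 genes in each of the 9 libraries as stacked bars, with 1 colour per gene. Gabarap is the largest segment in every library, and Gabarapl1 takes 13.2% to 14.8% of the bar in the 3 RANKL libraries and 17.5% to 32.3% with vitamins.

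Compared with PBS, cells that received RANKL and vitamins had 4 autophagy genes higher and 11 lower (39.5%, against 40.8% of all genes tested, 19.8% higher and 21.0% lower). This comparison shares its libraries with the others. The 4 higher genes were Sqstm1, Optn, Tecpr1 and Atg3, which also rose against RANKL. The lower genes were Ulk2, Atg101, Atg9a, Atg5 and Map1lc3b, which also fell against RANKL, together with Pik3r4, Wipi1, Vmp1, Atg16l2, Map1lc3a and Calcoco1. Ulk2 was lower by -1.01 (SE 0.155, edgeR adjusted p = 0.00133) and Atg101 by -0.98 (SE 0.183, adjusted p = 0.00342). Wipi1, a PI3P binding protein of the phagophore, was at 4.81, 5.61 and 5.07 FPKM with PBS, at 4.28, 4.61 and 5.04 with RANKL and at 3.51, 3.44 and 3.35 with vitamins, below PBS by -0.56 (SE 0.135, edgeR adjusted p = 0.0103), and this call held under all 16 alternatives. Gabarapl1, Atg12 and Atg14, which rose against RANKL, differed from PBS by 0.20, 0.66 and 0.79 (edgeR adjusted p = 0.655, 0.103 and 0.0815). In FPKM, 8 genes lay above and 15 below all PBS libraries, where 24.8% and 27.7% of all genes tested did so. Without vitamin replicate 2 the counts were 15 higher and 8 lower (23.3% and 26.5% of all genes tested), and Pik3r4, Vmp1 and Atg16l2 were lost (adjusted p 0.0526, 0.0542 and 0.0675). These 3 calls and those of Calcoco1 and Atg5 were lost in 13, 9, 10, 6 and 3 of the 16 alternatives, and the other 10 held in all. The lower count was 7 without PBS replicate 1, PBS replicate 2 or RANKL replicate 1, and 6 without PBS replicate 3 or vitamin replicate 3, where 26.8% to 34.4% of all genes tested passed in either direction.

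The wider pathway was followed in a list of 60 further genes, all of which were tested. With RANKL, 1 of the 60 rose and 0 fell (1.67%, against 3.61% of all genes tested). The riser was Phb2, a mitochondrial inner membrane protein that acts as a mitophagy receptor (log2 0.52, SE 0.119, edgeR adjusted p = 0.0497), and its call was lost with the replicate number as a block (0 rises among the 60) and when any PBS library, any RANKL library or vitamin replicate 3 was left out (0 rises). Without vitamin replicate 2, 13 of the 60 fell, and 5.23% of all genes tested did so. With vitamins against RANKL, 17 rose and 9 fell (43.3%, against 33.7% of all genes tested), and the count of rises was 8 to 11 when any RANKL library or vitamin replicate 1 or 3 was left out, where 8.91% to 14.2% of all genes tested rose. Without vitamin replicate 2, 23 of the 60 rose and 11 fell, and 21.2% and 25.2% of all genes tested did so. Among regulators of transcription, 4 of 11 rose and 1 fell (45.5%). Ddit3 (CHOP), a transcription factor of the integrated stress response, rose from 5.03 ± 0.293 to 101 ± 28.6 FPKM (log2 4.50, SE 0.272, edgeR adjusted p = 0.00012), and Atf4, the central factor of that response, from 38.6 ± 8.07 to 322 ± 97.8 FPKM (log2 3.24, SE 0.273, adjusted p = 0.00027). Nfe2l2 (NRF2), Mitf and Zkscan3 also passed, by 0.84, 0.62 and -0.63, whereas Tfeb and Tfe3 did not. Tfe3 differed by -0.32 (edgeR adjusted p = 0.083, and 0.00673 without vitamin replicate 2).

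Upstream kinases and regulators of mTORC1, the complex that restrains autophagy when nutrients are plentiful, gave 4 rises and 4 falls among 19 (42.1%, against the same 33.7%). Sesn2, a stress-induced inhibitor of mTORC1, rose from 8.12 ± 2.69 to 24.4 ± 6.22 FPKM (log2 1.71, SE 0.270, edgeR adjusted p = 0.00256), while its relative Sesn1 fell from 30.2 ± 1.54 to 3.16 ± 1.68 FPKM (log2 -3.14, SE 0.297, adjusted p = 0.00039). Deptor, an inhibitory subunit of mTORC1, fell from 8.81 ± 0.675 to 2.13 ± 0.920 FPKM (log2 -1.93, SE 0.218, edgeR adjusted p = 0.000744). Prkaa2, a catalytic subunit of AMPK, passed at a very low level, from 0.0425 to 0.337 FPKM (log2 3.17, SE 1.04, edgeR adjusted p = 0.0426). Of 10 other cargo receptors 3 rose and 1 fell (40%), with Retreg1, a receptor of endoplasmic reticulum, from 8.31 ± 0.840 to 22.3 ± 4.25 FPKM (log2 1.59, edgeR adjusted p = 0.00101) and Tax1bp1, a receptor for ubiquitinated cargo, from 16.7 ± 1.70 to 42.3 ± 16.9 FPKM (log2 1.53, adjusted p = 0.00629). Of 13 factors of fusion with the lysosome 8 passed (61.5%). Of these 5 rose, namely Epg5 and the tethering-complex subunits Vps11, Vps16, Vps18 and Vps39, by 0.66 to 0.96, and 3 fell, namely the SNARE genes Stx17, Snap29 and Vamp8, by -0.88, -0.64 and -0.76. The subunits Vps33a and Vps41 did not pass (0.18 and -0.0013, edgeR adjusted p = 0.29 and 0.996), nor did Plekhm1 and Rab7. The SNARE gene Ykt6 differed by -0.54 (edgeR adjusted p = 0.098, and 0.000319 without vitamin replicate 2). Against PBS, 15 of the 60 pathway genes were higher with vitamins and 16 lower (51.7%, against 40.8% of all genes tested), and 20 were higher and 16 lower without vitamin replicate 2 (23.3% and 26.5% of all genes tested).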

How the data were processed

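RNA-seq was performed on 9 libraries of mouse BMDMs, 3 per group, with groups and replicate numbers taken from the sample labels. The authors deposited 1 table with raw counts per gene, which were not normalized, and FPKM values, which they scaled to length and depth. The submitters' processing notes name cutadapt 1.9, HISAT2 2.0.4, StringTie 1.3.4d, edgeR and, as genome build, hg38. The table itself holds mouse genes, of which 90.3% have the coordinates of GENCODE release M21 on GRCm38 (35 of the 38 autophagy genes). Library preparation selected poly(A) RNA, the study describes pooled RNA, and use of strand in the counting is not stated, so genes that overlap another gene (18 of 38) or have close relatives are uncertain.

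Counts were compared in R 4.3.3 with edgeR 4.0.16 (filterByExpr, TMM, quasi-likelihood test of the 3 groups in 1 model of 9 libraries, Benjamini-Hochberg adjustment over 17002 genes, threshold 0.05). The standard error is the size of the log2 fold change divided by the square root of F. Alternatives were DESeq2 1.42.0, median-of-ratios size factors, no filter, only the 2 groups compared, a replicate block, limma 3.58.1 on log2(FPKM + 0.1) and log2(FPKM + 1), and each library left out, 16 in all. On simulated counts for vitamins against RANKL, of which 16354 genes passed the filter, edgeR called 25% of 100 genes changed 2-fold and 57% of 100 changed 4-fold, with 3 false calls. Of these changed genes, 95 and 96 passed the filter, and the others count as not called. The simulation left 16802 genes unchanged, where 33.7% of all genes tested passed in the data. These shares therefore do not give the sensitivity of the reported test. A count of 3 is at most 4.55e-06% of a library, and such floors cover counting error only.

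Replicate numbers may pair PBS and RANKL libraries: deviations from the group means correlated by 0.101, 0.19 and 0.139 across genes for replicates 1 to 3. The block left the autophagy calls of that comparison at 0 higher and 1 lower, where 4.85% of all genes tested passed.

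The autophagy genes, the 60 further pathway genes, the marker lists and the motifs were chosen with earlier results of these data known. All 38 genes are named, and values in every library are given for the genes past the threshold in RANKL against PBS and in vitamins against RANKL (up to 12 in each with the largest change, and the 2 others that passed), the ATG8 genes and the cargo receptors. Up to 8 pathway genes in each of these 2 comparisons are given by the same rule. Pathway genes named beyond this rule, and the library values of Ulk1, Atg4a, Atg4d, Atg2a and Wipi1, were chosen after their values were seen. Promoters came from RefSeq on GRCm38.p6, each cut before the first base of the gene in the table.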

Additional observations from a re-analysis of the deposited data

How the results depend on the processing

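Of 912 single-gene values (19 genes, 3 comparisons, 16 alternatives), 802 kept direction and side of the threshold, 67 lost the call, 23 gained one and 20 changed sign. All calls held for Sqstm1, Optn, Tecpr1, Atg12, Atg2b and Atg9a against RANKL (6 of 14), for 10 of 15 against PBS, and for 0 of 1 in RANKL against PBS. The cause of these changes was not tested. Sign changes were all in genes without a call in that comparison. Gabarap against RANKL was -0.013 without the filter, -0.13 on both FPKM scales, and -0.12 to 0.15 with a library left out (negative without RANKL replicate 2 or vitamin replicate 1). With a library left out, Gabarapl1 against PBS was -0.11 to 0.55 (negative without vitamin replicate 1), and Calcoco1 against RANKL was -0.38 to 0.0014 (positive without vitamin replicate 2). Gabarapl2 was 0.0072, 0.0018, 0.088 and 0.084 in RANKL against PBS (no filter, 2 groups, FPKM + 0.1, FPKM + 1) and -0.097 to 0.16 with a library left out (positive without PBS replicate 2 or vitamin replicate 1 or 3). Against RANKL it was -0.0098, -0.12 and -0.11 (no filter and both FPKM scales), and against PBS -0.076 to 0.18 with a library left out (positive without the same 3).

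Counts of autophagy genes moved as follows. RANKL against PBS gave 1 higher and 4 lower with DESeq2, 1 and 10 with only the 2 groups, 1 and 0 on both FPKM scales and 0 lower without the filter, and 0 to 1 higher and 0 to 12 lower with a library left out. Of all genes tested, 9.99% passed with DESeq2, 10.6% with only the 2 groups, 4.78% and 4.87% on the FPKM scales and 1.58% without the filter. With a library left out, 0.709% to 10.7% passed. Vitamins against RANKL gave 6 higher and 3 lower with only the 2 groups (12% and 11.9% of all genes, against 16.4% and 17.2% in the reported fit), and 5 to 19 higher and 1 to 5 lower with a library left out (18.1% to 46.4% of all genes in either direction). Against PBS there were 7 higher with DESeq2 (23.0% of all genes, against 19.8%), 7 lower without the filter (10.8%, against 21.0%), and 4 to 15 higher and 6 to 10 lower with a library left out (26.8% to 49.8% of all genes in either direction). Of the 60 pathway genes, RANKL against PBS gave 2 higher and 7 lower with DESeq2, 2 and 10 with only the 2 groups, 0 higher without the filter, and 0 to 1 higher and 0 to 13 lower with a library left out. Vitamins against RANKL gave 8 higher with only the 2 groups and 8 to 23 with a library left out, and against PBS 9 to 20 higher and 11 to 16 lower. The shares of all genes in these fits are those given above. Over all genes, DESeq2 called 1056 higher and 643 lower in RANKL against PBS.

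With the replicate number as a block, RANKL against PBS gave 0 higher and 1 lower among the autophagy genes and 0 higher and 1 lower among the pathway genes. Among the autophagy genes, vitamins against RANKL gave 10 and 5, and vitamins against PBS 5 and 10. Of all genes tested, 4.85%, 34.5% and 41.4% passed in these 3 comparisons. For the vitamin libraries, correlations between equal replicate numbers were -0.0276 to 0.0144 with PBS and 0.000148 to 0.097 with RANKL. Over all pairs of groups, 12 of 18 matches were best with the own number. Whether replicate numbers pair the vitamin libraries with the others was not settled. Protein identities among the ATG8 proteins were not analysed here.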

Other observations

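The deposited table annotates 125 genes with the KEGG autophagy pathway, of which 120 were tested and 31 belong to the 38 genes above. This larger set was counted after the data were seen. In RANKL against PBS, 0 of the 120 were higher and 5 were lower (4.17%, where 3.61% of all genes passed). With vitamins against RANKL 37 were higher and 24 lower (50.8%, where 33.7% of all genes passed), with a median log2 fold change of 0.16. Against PBS 24 were higher and 32 lower (46.7%, where 40.8% of all genes passed).

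Over the 38 autophagy genes, the mean log2 CPM per library was 6.09, 6.13 and 6.12 with PBS, 5.86, 5.67 and 5.89 with RANKL, and 6.40, 5.76 and 6.26 with vitamins. The 3 PBS libraries lay above the 3 RANKL libraries, and vitamin replicate 2 lay among the RANKL libraries. The autophagy genes took 0.397% to 0.417% of all counts with PBS, 0.330% to 0.347% with RANKL, and 0.448% to 0.864% with vitamins.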
